A study of Mus musculus with 4 samples.

Results

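Bnip3 and 7 further genes of mitochondrial receptors for autophagy (Bnip3l, Fundc1, Pink1, Bcl2l13, Fkbp8, Phb2 and Optn) were followed together with Gm45507, an antisense gene that lies within Bnip3. These 9 genes were taken by name from the 55487 genes of the deposited count table. Bnip3 was chosen by its difference in counts between knockout and mock in these libraries, and the other names were set with such values known, so the values of the 9 genes are described and no p-value is given for them. All 9 passed the filter on low counts. The libraries came from tumours of AXT cells (mouse osteosarcoma, obtained by overexpressing c-MYC in bone marrow stromal cells), injected in matrigel into C57BL/6scid mice, which lack mature T and B cells, and taken after 1 day. One group was the mock line (genotype WT, 1 library), and the other was AXT lines with a knockout of HIF-1alpha (3 libraries, named c11, c15 and c22). The labels list the knockout lines as AXT1-1, AXT1-2 and AXT2, and the sources used here do not pair them with c11, c15 and c22, nor say whether AXT1-1 and AXT1-2 are 1 clone. Every library shared the c-MYC background, the host strain, the matrigel and the time of sampling. Where 3 knockout values follow each other, their order is c11, c15, c22.

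Mitophagy is the removal of mitochondria by autophagy. In its receptor branch, proteins anchored in the outer mitochondrial membrane (BNIP3, its relative NIX encoded by Bnip3l, FUNDC1, BCL2L13 and FKBP8) bind LC3 and GABARAP proteins of the forming autophagosome directly. In its ubiquitin branch, the kinase PINK1 starts the marking of damaged mitochondria with ubiquitin, and adaptors such as optineurin (Optn) link the mark to the autophagosome. Prohibitin 2 (Phb2) sits in the inner membrane and binds LC3 once the outer membrane has ruptured. Bnip3 and Bnip3l are textbook targets of hypoxia-inducible factors, and FUNDC1 is known for mitophagy in low oxygen through changes in its phosphorylation.

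Promoters of 7 of the 9 genes were found in the RefSeq table of build GRCm38.p6, which gives 250 bases before and 50 bases after a gene's start. Bnip3l and Gm45507 were not among them. The start is that of RefSeq, and for Fundc1 it (17572007) lies so far inside the gene that the window ends at 17572257, short of the start in the deposited table (17572325). The promoters below are shown because of the places of their genes among the receptors. Bnip3 and Optn lay furthest below and furthest above mock, and Bcl2l13 had the fitted log2 fold change of smallest size (0.02). Capitals mark ACGTG or GCGTG, the core that HIF dimers bind, on either strand (CACGT and CACGC are the same letters read on the other strand).
Bnip3 (chr7:138909457-138909756, minus strand): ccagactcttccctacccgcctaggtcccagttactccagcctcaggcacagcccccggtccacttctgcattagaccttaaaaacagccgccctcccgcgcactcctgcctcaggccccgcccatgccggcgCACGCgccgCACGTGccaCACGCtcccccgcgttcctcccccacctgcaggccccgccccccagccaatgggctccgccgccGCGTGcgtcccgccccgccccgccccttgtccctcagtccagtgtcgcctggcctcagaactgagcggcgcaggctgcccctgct
Bcl2l13 (chr6:120835980-120836279, plus strand): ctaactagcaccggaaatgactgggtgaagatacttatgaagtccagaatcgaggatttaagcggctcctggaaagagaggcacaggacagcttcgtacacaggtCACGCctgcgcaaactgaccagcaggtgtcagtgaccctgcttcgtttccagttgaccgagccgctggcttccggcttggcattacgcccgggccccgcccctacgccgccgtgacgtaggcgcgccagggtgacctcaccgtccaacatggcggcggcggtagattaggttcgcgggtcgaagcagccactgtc
Optn (chr2:5064068-5064367, minus strand): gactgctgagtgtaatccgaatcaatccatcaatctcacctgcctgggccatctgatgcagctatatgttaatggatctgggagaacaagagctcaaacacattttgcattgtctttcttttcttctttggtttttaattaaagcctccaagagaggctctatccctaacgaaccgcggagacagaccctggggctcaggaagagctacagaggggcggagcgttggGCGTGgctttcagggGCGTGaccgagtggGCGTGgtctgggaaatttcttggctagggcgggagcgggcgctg

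The Bnip3 promoter held 5 matches, with first bases at -117, -108, -107, -99 and -35 from the start. Those at -108 and -107 overlap, since both are read from a single CACGTG, which reads the same on both strands. At least 5 matches were present in 1.66% of all 32851 promoters of the table, and at least 1 match in 43.8%. CACGTG was present in 7.15% of them, and among the 7 promoters in Bnip3 only. Optn held 3 matches, all GCGTG, at -23, -8 and 6. Bcl2l13 held 1 GCGTG at -145, Fkbp8 held 2 matches, Pink1 and Phb2 held 1 each, and Fundc1 held 0 in its window, which does not reach the gene's start. The Bnip3 promoter was 71.7% C and G, against 52.7% to 64% in the other 6. A match describes letters and not a binding site.

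Total counts ranged from 12383719 to 13193264 per library. Levels are given in CPM (counts scaled to a common library size, after TMM normalization), with 95% exact Poisson intervals that cover counting error only. Hif1a RNA was at 107 CPM in mock (interval 101 to 113) against 103, 98.9 and 22.7 CPM. The interval of c22 (20.1 to 25.4 CPM) lay below that of mock. Those of c11 (97.1 to 108 CPM) and c15 (93.6 to 104 CPM) overlapped it. A count over all exons does not show whether protein was made. The osteoblast genes that mark the tumour line (Runx2, Sp7, Col1a1 and 5 others) had summed levels of 4030, 3394, 3589 and 8782 CPM in mock, c11, c15 and c22. Bglap alone was at 0 counts, in c11. Col1a1 and Col1a2 made up most of each sum. Of the 8 genes, 4 were below mock in all 3 knockout libraries, and 1 (Col1a1) was above it. Among the 4, Runx2 was at 244 CPM in mock against 131, 139 and 118 CPM. Sp7 was at 177 CPM against 64.8, 144 and 77.4 CPM. Summed markers of red cells, muscle, macrophages and fibroblasts were highest in mock. Erythroid markers summed to 116 CPM in mock and 1.61 to 41.7 CPM in the knockout libraries (6 of 7 below mock in all 3), with Slc4a1 at 0 in the knockout libraries. Skeletal muscle markers summed to 106 CPM against 1.22 to 21.5 CPM (8 of 8 below), macrophage markers to 790 CPM against 238 to 432 CPM (7 of 8 below), and fibroblast markers to 110 CPM against 25.2 to 99.3 CPM (2 of 5 below). Endothelial, adipocyte, neutrophil and keratinocyte markers each summed to 0.15 to 9.63 CPM over the libraries. In bulk tumours, fewer cells of a type and less RNA per cell cannot be told apart.

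Bnip3 had the largest difference from mock among the 8 receptor genes. Bnip3 (chromosome 7, 138890836 to 138909519, minus strand, GRCm38) encodes the outer membrane receptor first named for its binding to BCL2. Its level was 468 CPM in mock, with a counting interval of 456 to 481. The knockout levels were 32.1 CPM (29.1 to 35.3), 30.01 CPM (27.1 to 33.1) and 39.99 CPM (36.6 to 43.6). Mock stood far above all 3 knockout libraries, and the knockout libraries stood close together, with c22 highest. The ratio of mock to knockout was 14.6 in c11, 15.6 in c15 and 11.7 in c22, and the log2 fold change from the fit, knockout over mock, was -3.78 (SE 0.29). By its level, Bnip3 was rank 250 of the 15706 genes tested in mock and rank 6483, 6531 and 5502 in c11, c15 and c22. The library with the lowest Hif1a RNA, c22, had the highest Bnip3 level of the knockout libraries.

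**Figure D1:**
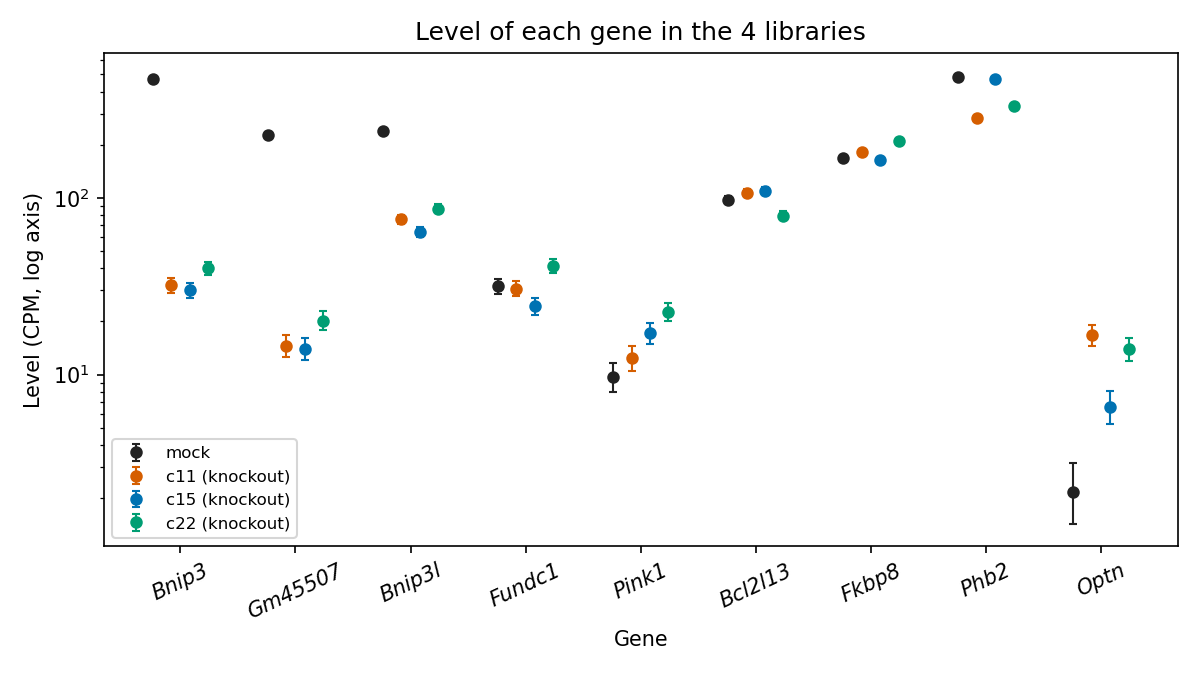
Level of each gene in CPM (vertical log axis) in the mock library and the knockout libraries c11, c15 and c22, with 95% exact Poisson intervals for counting error. Bnip3, Gm45507 and Bnip3l have the mock point well above the knockout points, and Optn has it below them.

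The spread of Bnip3 among the knockout libraries was below the median of all tested genes, as was that of other members. The coefficient of variation was 15.5%, against a median of 35.5% (6.45% to 157%) over 18 hypoxia-responsive reference genes and 27.3% over all tested genes. It was 12.5% for Fkbp8, 14.99% for Bnip3l and 16.9% for Bcl2l13. Low counts widen this measure. Car9, the widest reference gene, had 0, 2 and 28 counts in the knockout libraries, against 420, 395 and 515 for Bnip3. Of the reference genes, Egln1, Slc2a1 and Higd1a varied less, and Ankrd37, Egln3 and Car9 had a lower fitted log2 fold change than Bnip3. The reference genes, such as Pgk1, Ldha and Pdk1, were 17 of 18 below mock in all 3 knockout libraries (median log2 fold change -1.94 against 0.05 over all tested genes), with Vegfa as the exception. They were listed with earlier results of these data known. Of all tested genes, 22.2% were below mock in all 3 knockout libraries and 21.4% were above it. Erythroid, muscle and macrophage markers were lower in the knockout libraries beside Bnip3. Across c11, c15 and c22 the erythroid sum was 1.61, 4.25 and 41.7 CPM and the muscle sum 5.28, 1.22 and 21.5 CPM. The macrophage sum was 238, 328 and 432 CPM, and Bnip3 was at 32.1, 30.01 and 39.99 CPM. Each of these was highest in c22. The part of host cells in the mock level was not tested.

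**Figure D2:**
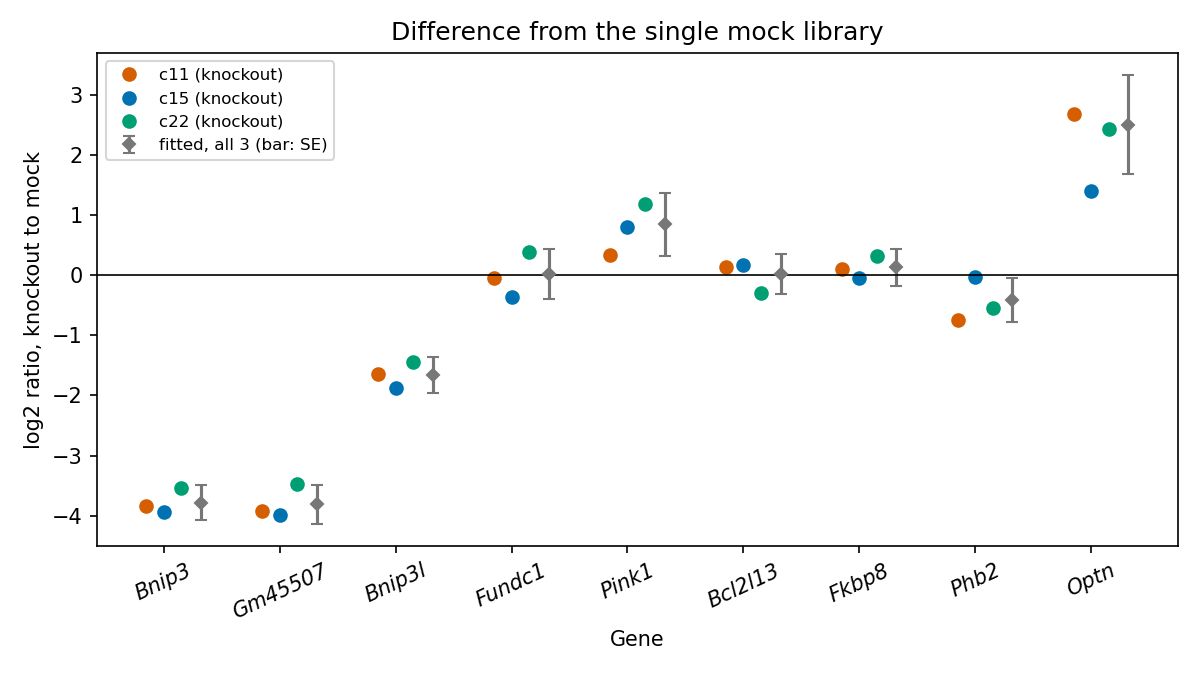
log2 ratio of each knockout library to the single mock library (coloured points, CPM with 0.5 added) and the fitted log2 fold change with its SE (grey diamonds) for the 9 genes. Bnip3 and Gm45507 lie between -3.98 and -3.47, Bnip3l between -1.88 and -1.45, and Optn between 1.39 and 2.69, while Fundc1, Bcl2l13 and Fkbp8 lie on both sides of 0.

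Gm45507 followed Bnip3 in every library. This antisense gene (chromosome 7, 138890964 to 138894675, plus strand) is annotated over the 3' part of Bnip3. Its level was 228 CPM in mock against 14.6, 14.0 and 20.2 CPM, a fitted log2 fold change of -3.81 (SE 0.32). Gm45507 took 32.7% of the counts of both genes in mock (exact binomial 95% interval 31.8% to 33.7%), 31.3% in c11 (27.6% to 35.1%), 31.8% in c15 (28.0% to 35.7%) and 33.5% in c22 (30.2% to 37.0%). These 4 shares overlapped, so the split between the pair did not differ beyond counting error, while the mock level was 11.3 to 16.3 times that of the knockout libraries.

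Nearly all exon bases of Gm45507 lie in exons of Bnip3. Of the 519 exon bases of Gm45507, 504 lie inside merged exons of Bnip3 (2265 bases) on the opposite strand, and 15 lie outside. The first exon of Gm45507 is 342 bases long and lies wholly in the last exon of Bnip3 (138890836 to 138891960). The library kit keeps strand, but the sources used here do not give the strand setting of the counting. Other nested genes of the table were therefore compared. Among 106 other genes with at least 95% of their exon bases inside the exons of a gene on the opposite strand, 4 were at 0 counts. Their counts per exon base were a median of 1.41 times those of the outer gene (10th to 90th percentile 0.029 to 3.63), and the value for Gm45507 against Bnip3 was 2.12. Among 23 genes nested in a gene of the same strand, 22 were at 0 counts. Where both genes of an opposite-strand pair were tested (90 pairs), their fitted log2 fold changes differed by a median of 0.14, and those of Gm45507 and Bnip3 differed by -0.03 (Gm45507 minus Bnip3). Counts at genes nested on the opposite strand were thus usual in this table, and counts at genes nested on the same strand were not. Whether the counts of Gm45507 came from RNA of Bnip3 or from an antisense RNA was not tested. Gm45507 is therefore not read here as a separate receptor signal.

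**Figure D3:**
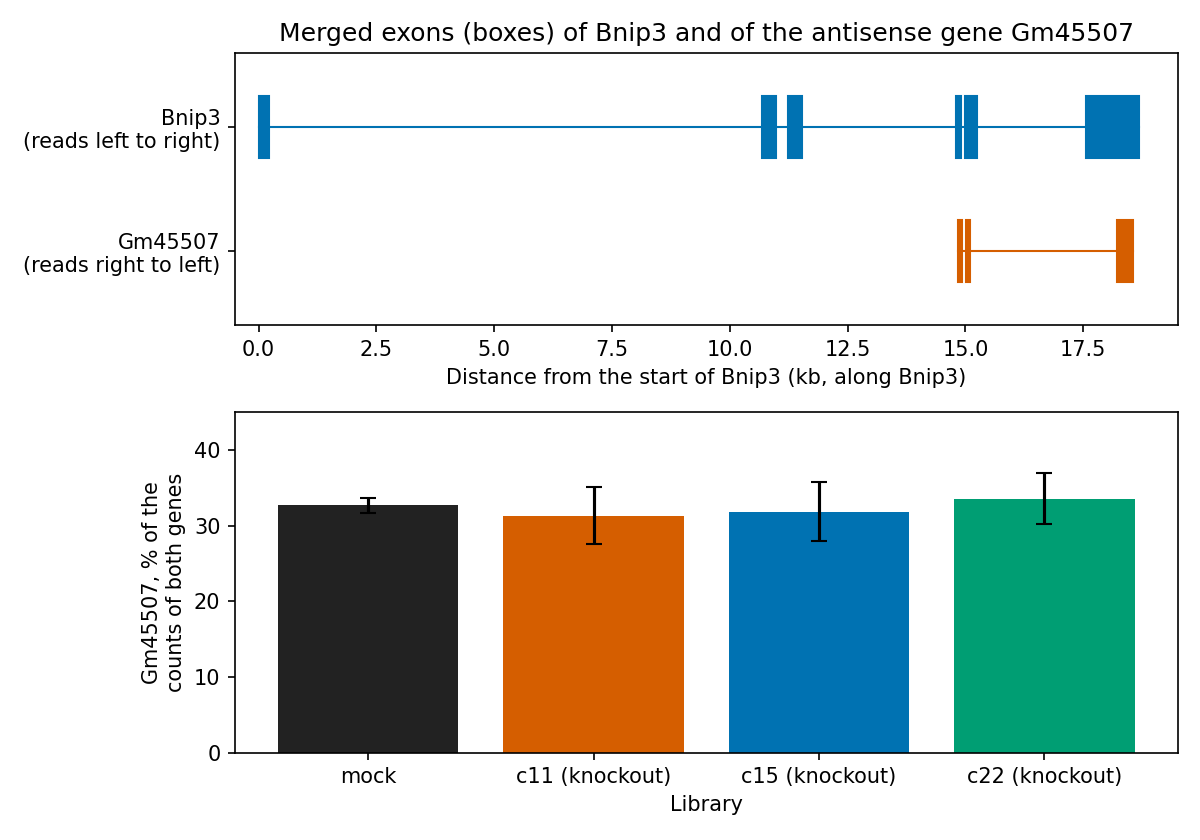
Upper panel: merged exons (boxes) of Bnip3 and Gm45507 by distance in kb from the start of Bnip3. Lower panel: share of the counts of both genes that fell on Gm45507 in each library (bars, percent) with exact binomial 95% intervals, with shares of 31.3% to 33.5% and overlapping intervals.

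Bnip3l was also below mock in all knockout libraries, by a smaller ratio. Bnip3l (chromosome 14, 66985239 to 67008877, minus strand) encodes NIX, the BNIP3 relative that clears mitochondria from maturing red cells. Its level was 238 CPM in mock (interval 230 to 247) against 75.6, 64.4 and 87.1 CPM. The mock value was 2.74 to 3.70 times the knockout values, and the library order c15, c11, c22 was that of Bnip3. The fitted log2 fold change was -1.65 (SE 0.30), and the coefficient of variation among knockout libraries was 14.99%. Erythroid markers, which stand for cells known to express Bnip3l, were at 116 CPM in mock, and among the knockout libraries they were lowest in c11 and highest in c22, at 1.61 and 41.7 CPM. Bnip3l in c22 was 1.35 times its level in c15, the largest ratio between knockout libraries. The part of erythroid cells in the mock level was not tested.

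Fundc1, Bcl2l13 and Fkbp8, the other outer membrane receptors, had the mock value inside the range of the knockout libraries. Fundc1 (chromosome X, 17556564 to 17572325) was at 31.6 CPM in mock against 30.7, 24.4 and 41.2 CPM, with a fitted log2 fold change of 0.02 (SE 0.42). Its level in c22 was 1.69 times that in c15, and the counting intervals of those libraries did not overlap. Bcl2l13 (chromosome 6, 120836212 to 120892842), the mammalian counterpart of the yeast receptor Atg32, was at 97.4, 107, 109 and 79.4 CPM in mock, c11, c15 and c22 (log2 fold change 0.02, SE 0.34). Its counting interval in c15 (103.8 to 115.1 CPM) lay above that of mock (92.0 to 103.1 CPM). The interval of c22 (74.6 to 84.5 CPM) lay below that of mock. Fkbp8 (chromosome 8, 70527724 to 70535328) was at 169, 181, 164 and 209 CPM (log2 fold change 0.13, SE 0.31) and had the smallest spread of the 9 genes, with a coefficient of variation of 12.5%. With 1 mock library, these values do not show that the levels were equal.

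Phb2 and its partner Phb varied among the knockout libraries. Phb2 (chromosome 6, 124712336 to 124716950), the inner membrane receptor, was at 481 CPM in mock (469 to 494) against 285, 469 (457 to 481) and 331 CPM. All 3 knockout libraries were below mock, but the interval of c15 overlapped that of mock, while c11 and c22 lay lower. The fitted log2 fold change was -0.41 (SE 0.36), and -0.26 without c11 and -0.65 without c15. Phb, which encodes prohibitin 1, the subunit that assembles with PHB2, was at 282 CPM in mock against 151, 357 and 140 CPM (log2 fold change -0.38, SE 0.58, edgeR adjusted p = 1). Both prohibitin genes were thus lower in c11 and c22 than in c15.

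Pink1 and Optn, of the ubiquitin branch, were above mock in all knockout libraries. Pink1 (chromosome 4, 138313409 to 138326307), the kinase gene, was at 9.68 CPM in mock (8.03 to 11.6) against 12.4 (10.6 to 14.4), 17.2 and 22.6 CPM. The interval of c11 overlapped that of mock, and c15 and c22 lay above both (log2 fold change 0.84, SE 0.52). Optn (chromosome 2, 5020642 to 5064051), the gene of the adaptor optineurin, had 27 counts in mock against 219, 86 and 179 counts. Its level was 2.18 CPM in mock (1.44 to 3.17) against 16.7, 6.53 and 13.9 CPM. The knockout mean was 5.69 times mock (log2 fold change 2.50, SE 0.82), and the spread among knockout libraries was the widest of the 9 genes, with a coefficient of variation of 42.5%. Library c15 lay nearest to mock. Counted over the 9 genes, 4 were below mock in all 3 knockout libraries (background 22.2%), 2 were above it in all 3 (background 21.4%) and 3 had mock inside the knockout range. Without Gm45507, whose exons lie in Bnip3, 3 of 8 were below mock. The members were chosen with this contrast known, so these counts are a description.

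Levels per length put the receptors on one scale. Per kilobase of merged exons in mock, Bnip3 was highest at 207 CPM per kb, followed by Phb2 (129), Bnip3l (61.8), Fkbp8 (37.2), Fundc1 (13.4), Bcl2l13 (10.7), Pink1 (3.62) and Optn (0.58). In the knockout libraries the order was Phb2 (97.3 ± 25.7 CPM per kb, SD, n = 3), Fkbp8 (40.8 ± 5.09), Bnip3l (19.6 ± 2.94), Bnip3 (15.03 ± 2.32), Fundc1 (13.6 ± 3.62), Bcl2l13 (10.8 ± 1.83), Pink1 (6.50 ± 1.91) and Optn (3.30 ± 1.404). Bnip3, at place 1 in mock, was at place 4 in each of c11, c15 and c22. With the counts of Gm45507 added to it, Bnip3 was at place 1 in mock (307 CPM per kb) and at place 3 in each knockout library (20.6, 19.4 and 26.6 CPM per kb), above Bnip3l. Bnip3 alone was adjusted in this way. Bcl2l13, Phb2, Fkbp8, Pink1 and Optn also share exon bases with other genes (628, 296, 224, 179 and 73 bases). Within the libraries Bnip3 alone was above Fundc1 in all 3, narrowly in c22 (17.66 against 17.52 CPM per kb), and Fundc1 and Bcl2l13 changed order in c15.

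Bnip3 made up 44.6% of the summed CPM per kb of the 8 receptors in mock against 7.69%, 5.95% and 8.26% in the knockout libraries. Phb2 made up 27.9% in mock and 41.6%, 56.6% and 41.6% in the knockout libraries. The sum over the 8 genes was 464 CPM per kb in mock against 184, 223 and 214 CPM per kb. Without Bnip3 and Bnip3l the sum was 195 in mock and 151, 193 and 174 CPM per kb, so these 2 genes carried most of the difference. The choice of length changed this order. The length of the longest coding transcript was an alternative that was not planned. With that length, Phb2 was above Bnip3 in mock (365 against 267 CPM per kb) and Fkbp8 above Bnip3l (93.7 against 73.2 CPM per kb). The share of Phb2 in mock was then 43.8%, the share of Bnip3 was 31.99% in mock against 4.56%, 3.28% and 4.91%, and Bnip3 stayed at place 4 in each knockout library.

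**Figure D4:**
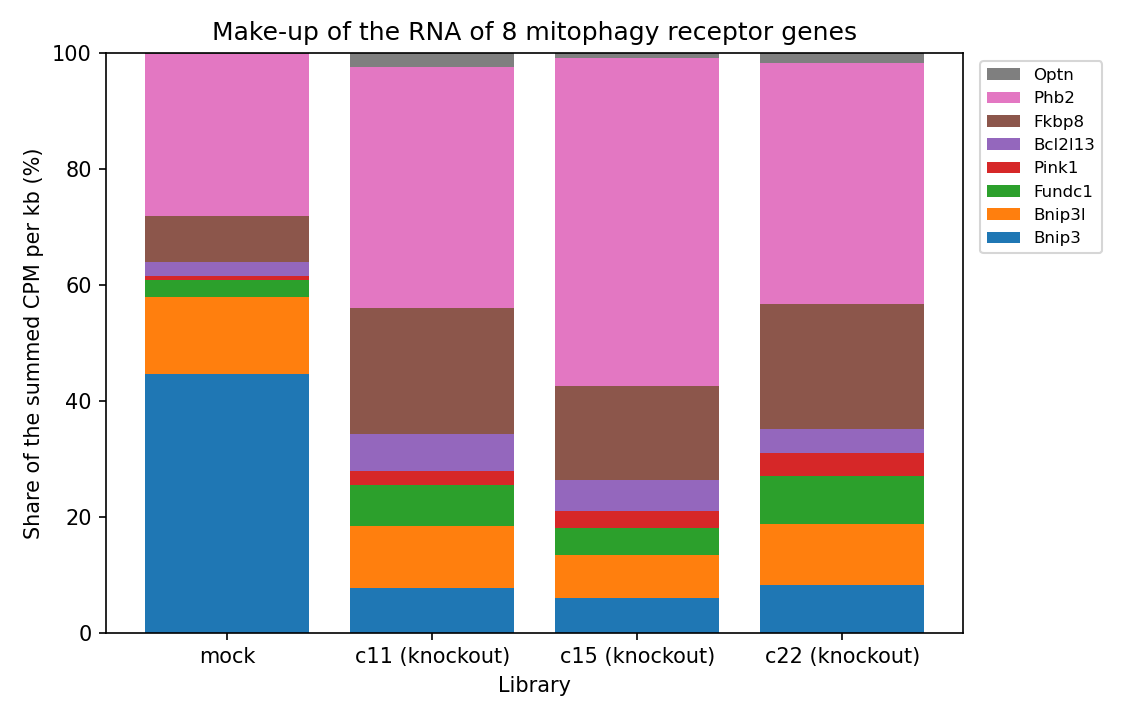
Share (percent) of each of 8 receptor genes in their summed CPM per kb of merged exons in the 4 libraries. The Bnip3 segment takes 44.6% in mock and 5.95% to 8.26% in the knockout libraries, where Phb2 takes 41.6% to 56.6%.

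Of the other genes of the pathway, 38 of 48 (79.2%) had a log2 fold change above 0, against 54.5% of all tested genes. In 6 lists by role, 48 of 51 genes were tested in the knockout against mock comparison. The lists were chosen with earlier results of these data known, so their shares, medians and calls are a description. With edgeR's quasi-likelihood test and adjustment over all genes, 0 passed as higher (background 0%) and 0 as lower (background 0.00637%). At an unadjusted p under 0.05, 2 were higher (background 1.12%) and 0 lower (background 2.56%), and DESeq2 called 1 higher (background 0.306%) and 0 lower (background 0.42%). The median log2 fold change was 0.19 against 0.05 over all tested genes. Of the 48 genes, 16 (33.3%) were above mock in all 3 knockout libraries, where the background was 21.4%, and 1 (2.08%) was below, where it was 22.2%.

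Among the ubiquitin-binding adaptors and the kinase Tbk1, 5 of 6 tested genes were above mock in all knockout libraries and 0 passed edgeR (median 0.53). Sqstm1, the gene of the adaptor p62, was at 274 CPM in mock against 569, 864 and 561 CPM (log2 fold change 1.28, SE 0.39, edgeR adjusted p = 0.911). Mock lay below all 3 libraries, and c15 was the highest. Nbr1 was at 78.3 CPM against 107, 146 and 111 CPM (log2 fold change 0.63, SE 0.35). Tbk1, which phosphorylates optineurin, was at 30.8 CPM against 39.2, 37.6 and 34.6 CPM, and Calcoco1 had a log2 fold change of 0.07 (SE 0.41). Calcoco2 had 0 counts in every library, which allows up to 0.242 CPM in mock for counting error.

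Among the genes that act with PINK1, 3 of 13 tested genes were above mock in all knockout libraries, 0 were below it in all 3 and 0 passed edgeR (median 0.11). Vcp, the segregase that extracts ubiquitinated membrane proteins, was at 363 CPM in mock against 426, 554 and 584 CPM (log2 fold change 0.52, SE 0.32). Usp30, a deubiquitinase of the outer mitochondrial membrane, had a log2 fold change of 0.28 (SE 0.37). The import channel gene Tomm40 was at 186 CPM against 126, 201 and 137 CPM (log2 fold change -0.27, SE 0.37), and Tomm7 had a log2 fold change of -0.04 (SE 0.43).

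The LC3 and GABARAP genes, whose products the receptors bind, had a median of 0.37, with 3 of 5 above mock in all knockout libraries and 0 past edgeR. Gabarap was at 101 CPM in mock against 187, 146 and 194 CPM (log2 fold change 0.80, SE 0.33, edgeR adjusted p = 1). Map1lc3a was at 24.1 CPM in mock against 59.7, 24.1 and 91.2 CPM (log2 fold change 1.27, SE 0.76), so c15 was at the mock level. Gabarapl1 and Gabarapl2 had fitted log2 differences of 0.36 (SE 0.42) and -0.09 (SE 0.37).

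Among 12 partners and turnover factors of the receptors, 2 were above mock in all knockout libraries, 0 below it in all 3, and 0 passed edgeR (median 0.09). Src, the tyrosine kinase that phosphorylates FUNDC1, was at 6.05 CPM in mock against 62.6, 21.96 and 30.1 CPM. It had a log2 fold change of 2.66 (SE 0.78) with an edgeR adjusted p of 0.841, and it was the 1 list gene that DESeq2 called (DESeq2 adjusted p = 0.0251). Ulk1, the autophagy kinase that also acts on FUNDC1, was at 35.4 CPM in mock against 70.7, 27.4 and 62.3 CPM (log2 fold change 0.59, SE 0.59). Bcl2, which BNIP3 binds, was at 16.5 CPM against 9.56, 10.9 and 17.7 CPM (log2 fold change -0.37, SE 0.51). Fbxl4 and Pptc7, which hold BNIP3 and NIX protein low, were at 13.8 CPM against 18.4, 16.2 and 13.0 CPM and at 51.9 CPM against 54.2, 47.0 and 33.6 CPM, and were named after their values were seen.

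Genes of mitochondrial fission, fusion and transport had a median of 0.27, with 2 of 10 above and 1 below mock in all knockout libraries and 0 past edgeR. The fission adaptor gene Mief2 was at 4.68 CPM in mock against 15.1, 6.00 and 14.8 CPM (log2 fold change 1.35, SE 0.73). Mfn2, a fusion GTPase gene, was at 33.6 CPM against 41.4, 91.6 and 37.3 CPM, high in c15 alone (log2 fold change 0.76, SE 0.61). Mief1 and Opa1 had fitted log2 differences of -0.11 (SE 0.32) and -0.15 (SE 0.33). Bnip1 and Bnip2, which share a name with Bnip3 but are not mitophagy receptors of its kind, had fitted log2 differences of 0.09 (SE 0.43) and 0.21 (SE 0.30), and Bnipl was not tested. Erythroid, muscle and macrophage markers were lower in the knockout libraries beside all of these lists, and their part was not tested.

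**Figure D5:**
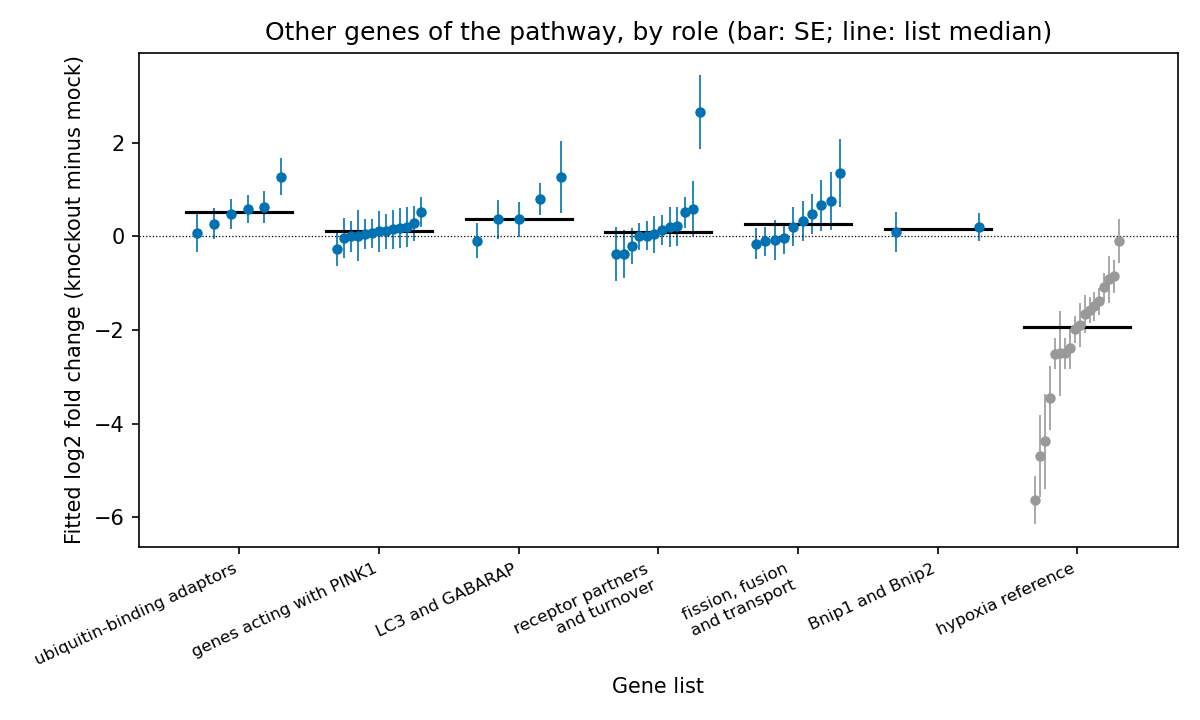
log2 fold change of knockout over mock, with SE, for each tested gene of 6 mitophagy lists by role (blue) and of the hypoxia reference (grey), with the median of each list as a black line. Medians of the blue lists lie from 0.09 to 0.53, and that of the reference at -1.94.

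The genes whose levels over the 4 libraries lay nearest to those of Bnip3 were found by the distance of their centred log2(CPM + 0.5) values, among 10214 other genes with a mean of at least 5 CPM, predicted genes and pseudogenes left out. They were Smtnl2 (distance 0.72), the drug efflux pump gene Abcb1a (0.80), Lrp2bp (1.00), the replication kinase subunit gene Dbf4 (1.03) and the mitochondrial carrier gene Slc25a23 (1.05). Smtnl2 was at 24.2 CPM in mock against 1.07, 2.28 and 2.33 CPM, and Slc25a23 at 27.1 CPM and 2.98, 4.48 and 3.96 CPM. The annotated span of Lrp2bp overlaps that of Ankrd37, and Abcb1a and Dbf4 both lie on chromosome 5 (8660077 to 8748575 and 8396973 to 8422716). Gm45507 was left out of that ranking and lay at a distance of 0.11. Bnip3l lay at 1.83, with 52 genes nearer.

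The genes nearest to Bnip3l were the peroxisomal import gene Pex26 (distance 0.15), the collagen lysyl hydroxylase gene Plod2 (0.16), Cd93 (0.20), the claudin gene Cldn12 (0.20) and the glyoxylate reductase gene Grhpr (0.22). Plod2 was at 248 CPM in mock against 88.2, 76.3 and 93.0 CPM, a ratio of mock to the knockout mean of 2.89 against 3.15 for Bnip3l. Cd93, a surface protein of endothelial and myeloid cells, was at 19.6 CPM in mock against 6.81, 6.00 and 8.08 CPM in the knockout libraries. Cldn12 (5489537 to 5514958) lies on chromosome 5, as do Abcb1a and Dbf4, and whether their place bears on their levels was not tested. These 10 genes were picked for their likeness in these libraries, so no test is given for them. With 4 libraries, of which mock alone sets the main difference, a small distance describes these libraries only.

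The deposited table carries Gene Ontology terms, and the few processes looked up did not mark the 9 genes as a group. The process "autophagy of mitochondrion" was given to 22 genes of the table, and among the 9 to Fundc1 and Pink1. The process "response to hypoxia" was given to 130 genes, and among the 9 to Fundc1. The process "mitophagy" was given to 12 genes, and among the 9 to Phb2. Bnip3 and Bnip3l carried "positive regulation of apoptotic process" (274 genes) and neither mitophagy term. A search of this table by those terms therefore misses Bnip3, the receptor gene with the largest difference from mock.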

How the data were processed

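Poly(A) RNA from 4 tumour libraries was measured. The authors deposited 1 table of raw read counts, with a row per Ensembl gene. Per the submitters' processing notes, these counts rest on HISAT2 2.1.0, featureCounts 1.6.3, Trimmomatic 0.38, SAMtools 1.9, FastQC 0.11.7 and GRCm38. Their settings, strand included, are not given in the sources used here. Genes kept by filterByExpr (15706 of 55487) were scaled by TMM and tested with edgeR 4.0.16 (quasi-likelihood, robust, bias-adjusted deviances, 2-sided, R 4.3.3), with Benjamini-Hochberg adjustment at 0.05. The mock library had no replicate, so the spread rests on 2 residual and 3.77 prior degrees of freedom, and an exact permutation of 1 against 3 libraries cannot go below a 1-sided p of 0.25. Whether the knockout tumours came from separate animals is not stated, so a p-value covers the spread of these libraries, which may be technical. DESeq2 1.42.0 was run on the same genes, and limma 3.58.1 (voom), other scalings and filters, the older edgeR fit (added after seeing the data) and each knockout library left out were alternatives.

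Exon lengths and overlaps came from GENCODE M21 (GRCm38) and promoters from RefSeq. The members and lists were chosen with earlier results of these data known. Named genes were the members, Hif1a, the 2 highest and 2 lowest genes of each mitophagy list (mean level 5 CPM or more), and the 5 genes nearest to Bnip3 and to Bnip3l. Reference genes, markers and list genes outside this rule were picked for naming once their values were known. Some items are not reported here.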

Additional observations from a re-analysis of the deposited data

How the results depend on the processing

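Over 10 alternatives per gene, the log2 fold change of each of the 9 genes moved by less than the spread between knockout libraries. That spread is the SD of the log2 ratios of the knockout libraries to mock. Leaving a knockout library out can hardly move their mean by that much, so this outcome was nearly fixed in advance. Bnip3 ranged from -3.91 to -3.70, Bnip3l from -1.77 to -1.55 and Optn from 2.23 to 2.81. Fundc1 (-0.20 to 0.18) and Bcl2l13 (-0.07 to 0.15) took both signs. Over all genes, edgeR called 0 higher and 1 lower (Xlr3c). DESeq2 called 48 higher and 66 lower. With no filter on low counts 4 were called lower, among them Xlr3c, Morc1 and Camkv. With limma-voom, with the older edgeR fit and without c11, c15 or c22 in turn, 0 were called in either direction, and the cause was not tested. Of the mitophagy lists, DESeq2 called 1 gene higher (Src) and every other alternative called 0. With the counts of Gm45507 added to Bnip3 (chosen after seeing the data), the Bnip3 share of the receptor sum was 54.5% in mock and 8.48% to 11.9% in the knockout libraries. No paired analysis was possible because there was 1 mock library. The single mock library limits every difference given, and for Optn its 27 counts do.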
